A study of Mus musculus with 2 samples.

Results

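Transcript levels of 7 genes of the sodium pump and of sodium transport were followed in mouse mesenteric artery held at a control or at a depolarizing K+ concentration. The genes encode the pump beta subunits Atp1b1, Atp1b2 and Atp1b3, the FXYD proteins Fxyd1 and Fxyd5, the sodium-bicarbonate cotransporter Slc4a7 and the kinase Sgk1. They were chosen by symbol, through the Ensembl gene identifiers of the deposited files, and all 7 were found among 55573 listed genes. The rule itself uses no measured value, but it was set with earlier results of these data known.

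The study asked what sustained depolarization of the arterial wall does to gene expression in vascular myocytes, and sequenced RNA of small arteries that feed the intestine. Both groups came from wild-type C57BL/6 mice aged 10 weeks, with arteries of 2 mice pooled in each library. Control arteries were kept in 5 mM K+ and depolarized arteries in 60 mM K+, and the labels give 60 min for both. In the high K+ solution KCl replaced part of the NaCl, so less Na+ bathed these arteries, and K+ and Na+ cannot be told apart. By the study's supplementary methods, all solutions also held tetrodotoxin, to keep the high K+ from activating autonomic nerves. The study's results describe perfusion with either solution before sequencing. In its general supplementary methods, the control segments were instead the ligated distal part of the vessel, taken before the K+ perfusion. Which account holds for these libraries is not stated, so segment and handling cannot be told apart from K+ either. With 1 library for each condition, differences could not be set against replicates and no p-values are given.

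The Na+/K+-ATPase moves Na+ out of the cell and K+ into it at the cost of ATP, and is switched on by intracellular Na+ and extracellular K+. Its alpha subunit binds the ions and ATP and is the receptor of ouabain. The beta subunit is a glycoprotein needed for folding and delivery to the membrane, and a small FXYD protein sets the ion affinity of the assembled pump. In arterial smooth muscle part of the pumps lies near the sodium-calcium exchanger, and through this exchanger the Na+ gradient bears on Ca2+ and tone. SGK1 is a kinase whose transcript is induced by corticosteroids, serum and cell shrinkage, and which raises the membrane amount of several Na+ transporters.

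Promoters are shown for Sgk1 and Atp1b3, chosen for matches to sequence elements of Ca2+- or steroid-driven transcription near a start. Fxyd1 and Fxyd5 stand beside them as the FXYD genes with the highest levels. The match linked to Ca2+ is a short core that 20.8% of all searched windows held. Windows of RefSeq on GRCm38.p6 were used, from 250 bases before to 50 bases after a start. The read counts were made on mm9, and these positions are not on that build. Capitals mark the core of the cAMP response element, CRE (TGACG, or CGTCA on the other strand), and a full palindromic glucocorticoid response element, GRE. All sequences are written 5′ to 3′ in the direction of transcription. Atp1b3, Fxyd1 and Fxyd5 lie on the minus strand and Sgk1 on the plus strand.
Sgk1, start with the GRE (chr10:21993640-21993939): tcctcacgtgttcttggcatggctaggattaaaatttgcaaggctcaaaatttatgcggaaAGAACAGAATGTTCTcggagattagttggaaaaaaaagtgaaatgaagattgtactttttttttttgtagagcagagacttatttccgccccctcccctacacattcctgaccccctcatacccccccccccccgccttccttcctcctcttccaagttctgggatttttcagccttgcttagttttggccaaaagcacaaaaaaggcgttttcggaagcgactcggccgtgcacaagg
Sgk1, upstream start (chr10:21978422-21978721): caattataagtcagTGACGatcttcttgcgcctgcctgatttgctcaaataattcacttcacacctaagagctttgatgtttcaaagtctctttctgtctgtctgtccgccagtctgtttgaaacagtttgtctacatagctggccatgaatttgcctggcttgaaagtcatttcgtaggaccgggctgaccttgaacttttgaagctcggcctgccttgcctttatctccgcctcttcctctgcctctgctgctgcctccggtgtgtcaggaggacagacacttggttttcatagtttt
Atp1b3, downstream start (chr9:96363666-96363965): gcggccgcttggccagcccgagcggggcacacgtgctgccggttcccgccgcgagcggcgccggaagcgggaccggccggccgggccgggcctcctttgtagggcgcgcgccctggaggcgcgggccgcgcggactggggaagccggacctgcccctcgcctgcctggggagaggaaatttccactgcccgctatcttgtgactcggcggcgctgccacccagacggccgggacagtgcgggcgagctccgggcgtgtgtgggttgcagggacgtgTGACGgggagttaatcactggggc
Atp1b3, upstream start (chr9:96364382-96364681): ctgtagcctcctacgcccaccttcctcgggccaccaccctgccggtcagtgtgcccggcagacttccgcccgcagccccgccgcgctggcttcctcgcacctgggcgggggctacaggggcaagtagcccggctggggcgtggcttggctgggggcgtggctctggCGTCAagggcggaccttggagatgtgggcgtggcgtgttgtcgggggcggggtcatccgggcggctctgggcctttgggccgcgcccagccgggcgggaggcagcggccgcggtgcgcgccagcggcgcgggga
Fxyd1 (chr7:31054804-31055103): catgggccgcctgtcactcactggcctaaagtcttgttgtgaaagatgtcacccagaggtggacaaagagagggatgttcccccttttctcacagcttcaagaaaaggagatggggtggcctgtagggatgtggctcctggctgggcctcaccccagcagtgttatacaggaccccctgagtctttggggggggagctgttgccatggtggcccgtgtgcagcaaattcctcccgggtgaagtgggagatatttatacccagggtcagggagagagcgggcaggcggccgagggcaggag
Fxyd5 (chr7:31042282-31042581): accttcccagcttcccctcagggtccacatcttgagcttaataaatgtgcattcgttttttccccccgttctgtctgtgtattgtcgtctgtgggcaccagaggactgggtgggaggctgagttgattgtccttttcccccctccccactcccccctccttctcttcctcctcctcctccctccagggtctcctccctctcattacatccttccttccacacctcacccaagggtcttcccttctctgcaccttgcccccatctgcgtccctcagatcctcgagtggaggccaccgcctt

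The elements were searched on both strands of 32851 windows of 300 bases from 27025 genes, and 12 windows belonged to 6 of the 7 genes. No window of Atp1b2 was in the table. The Sgk1 window that begins at base 21993640 held the GRE letters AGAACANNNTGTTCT at 189 bases before the start, which 3 of all windows did (0.00913%). One of 6 Sgk1 windows held TGACG, at 236 bases before its start, and both Atp1b3 windows held it on 1 strand or the other, against 20.8% of all windows. The core TGACG is part of the full CRE, TGACGTCA, which 1.79% of all windows and none of these 12 held. The Fxyd1, Fxyd5 and Slc4a7 windows held none of the searched elements, which also included the AP-1 site TGANTCA (7.81% of all windows), the Sp1 site GGGCGG (35.7%), the E-box CACGTG (7.15%) and the CArG box of serum response factor (1.63%). The window that begins at base 96364382 of Atp1b3 held 6 Sp1 matches, the Sgk1 window that begins at base 21994416 held 4, and that of Atp1b1 held 2. Reads were summed per gene, so the start from which the Sgk1 or Atp1b3 transcripts began is not known.

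The libraries held 10480918 (control) and 11289598 (depolarized) reads on genes, and the 7 genes together took 0.112% of the reads in each. Levels are given as the authors' FPKM, reads scaled by gene length and library total. Differences are given as log2(fold-change) of 60 over 5 mM K+ on read counts scaled by the trimmed mean of M-values (TMM). Intervals are 95% exact (Clopper-Pearson) intervals from the reads and cover counting error only. The intervals of levels and of differences are narrow for 6 of the 7 genes, which had at least 1000 reads over both libraries, and wide for Atp1b1. Scaling by total counts, as in the FPKM values, lowers every log2(fold-change) by 0.21, the median of all genes included, so that FPKM ratios lie below the TMM values.

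Fxyd1, or phospholemman, which lowers the Na+ affinity of the pump until it is phosphorylated, had the highest level of the 7 genes, 508 FPKM (interval 489 to 528) in control and 587 FPKM (567 to 607) in depolarized arteries. In the control library it was followed by Atp1b2 at 168, Sgk1 at 166, Atp1b3 at 140, Fxyd5 at 112 and Slc4a7 at 27.8 FPKM. Atp1b1 was last at 1.25 FPKM. In the control library the intervals of neighbours in this order were separate except for Atp1b2 (162 to 174) and Sgk1 (159 to 172). In the depolarized library the order was Fxyd1, Sgk1 at 183, Atp1b3 at 153, Fxyd5 at 136, Atp1b2 at 128, Slc4a7 at 21.1 and Atp1b1 at 0.993 FPKM. Here only the intervals of Fxyd5 (128 to 143) and Atp1b2 (123 to 133) overlapped. Thus Atp1b2 went from rank 2 to rank 5 between the libraries, while Fxyd1, Slc4a7 and Atp1b1 kept their ranks.

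**Figure D1:**
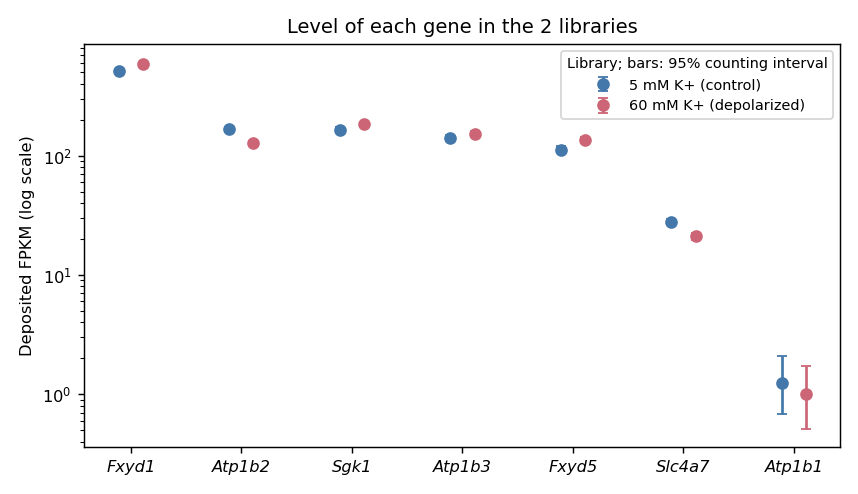
Deposited FPKM on a log scale for each of the 7 genes in the control (5 mM K+) and depolarized (60 mM K+) library, 1 library each, with bars for the 95% counting interval. Fxyd1 is highest and Atp1b1 lowest in both, and Atp1b2 is the only gene above 100 FPKM whose depolarized value is lower (168 and 128 FPKM).

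None of the 7 genes passed a 2-fold difference in either direction, against 5.54% of 14829 genes with at least 10 reads that were up-regulated by more than 2-fold and 5.86% that were down-regulated. Of 4096 genes with at least 1000 reads, 3.59% were more than 2-fold higher and 0.0732% more than 2-fold lower. For Fxyd5, Fxyd1, Sgk1 and Atp1b3 the counting interval lay above 0, for Atp1b2 and Slc4a7 below it, and for Atp1b1 it held 0. Intervals lay above 0 for 25.0% and below 0 for 20.3% of genes with at least 10 reads, and for 50.7% and 20.2% of genes with at least 1000 reads. The deeper background compares with the 6 of the 7 genes that had at least 1000 reads, which leaves out Atp1b1. With TMM scaling 4 of these 6 lay above 0 and 2 below. So few genes cannot be set apart from the shares of all well-covered genes. With total counts the 7 genes again had 4 above and 2 below, while the shares of well-covered genes became 28.0% above and 45.0% below. The median log2(fold-change) was 0.34 for the 7 genes, -0.0047 for all genes with at least 10 reads and 0.13 for those with at least 1000 reads. The intervals leave out variation between animals. An assumed coefficient of variation between samples was added on the TMM scale, with values chosen after the data were seen. With 0.1, only the intervals of Fxyd1 (0.01 to 0.82) and Fxyd5 (0.06 to 0.90) stayed clear of 0. With 0.2 none did. Both lower ends are smaller than the 0.21 by which total counts lower each value. They are also smaller than the length trend described below, 0.30 for Fxyd1 and 0.18 for Fxyd5. With either taken off, both intervals would hold 0.

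**Figure D2:**
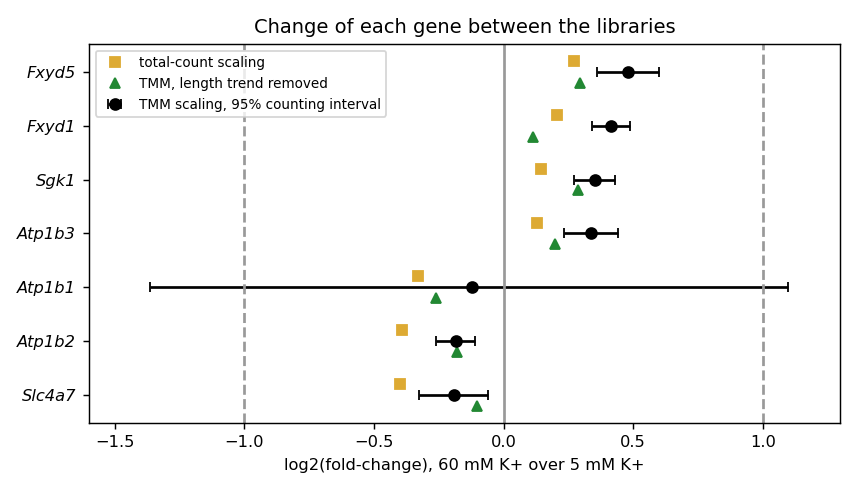
Log2(fold-change) of 60 over 5 mM K+ for the 7 genes. Black points are TMM-scaled values with 95% counting intervals, squares are values scaled by total counts, triangles are TMM values with the gene-length trend removed, and dashed lines mark 2-fold. Each gene keeps its sign in all 3 settings, and all 7 points lie within the dashed lines.

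Among the beta subunits, Atp1b2 and Atp1b3 differed in opposite directions. Atp1b2 (ENSMUSG00000041329; mm9 chromosome 11, 69413238 to 69419444, minus strand), a beta subunit first described as an adhesion molecule on glia, had 3206 reads in control and 2630 in depolarized arteries. Its log2(fold-change) was -0.18 (interval -0.26 to -0.11), and 15.6% of the genes with at least 1000 reads had a lower value. Atp1b3 (ENSMUSG00000032412; mm9 chromosome 9, 96233099 to 96264766, minus strand), a beta subunit found in many tissues, had 1377 and 1622 reads. Its log2(fold-change) was 0.34 (0.23 to 0.44), and 26.2% of the well-covered genes had a higher one. The annotated gene Gm17562 on the other strand shares 97 bases with Atp1b3, and reads of both cannot be told apart where the counting took no account of strand. Atp1b1 (ENSMUSG00000026576; mm9 chromosome 1, 166367398 to 166388486, minus strand), the beta subunit of kidney epithelium and heart, had 14 and 12 reads. A log2(fold-change) between -1.36 and 1.10 is within its interval, so even a 2-fold difference was not detectable at this depth. Atp1b4 had 0 reads in both libraries.

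The ratio of these genes does not depend on the scaling of the libraries. Atp1b2 made up 54.3% of summed beta subunit FPKM in control and 45.3% in depolarized arteries, and Atp1b3 45.3% and 54.3%. The ratio of Atp1b3 to Atp1b2 was 0.835 in control and 1.20 in depolarized arteries. The log2 ratio of these ratios was 0.52 with a counting interval of 0.39 to 0.65, and -0.06 to 1.10 with the assumed coefficient of variation of 0.1. By the length implied by counts and FPKM, not by its span on the chromosome, Atp1b3 is shorter (938 against 1824 bases). With the trend with this length, described below, removed, the value was 0.38. Summed beta subunit FPKM was 309 in control and 282 in depolarized arteries. Unlike the ratio, this sum depends on the scaling. FPKM follows total counts, which lower each log2(fold-change) by 0.21 beside TMM, more than the log2 difference between the sums. The direction of the sum is therefore not settled.

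**Figure D3:**
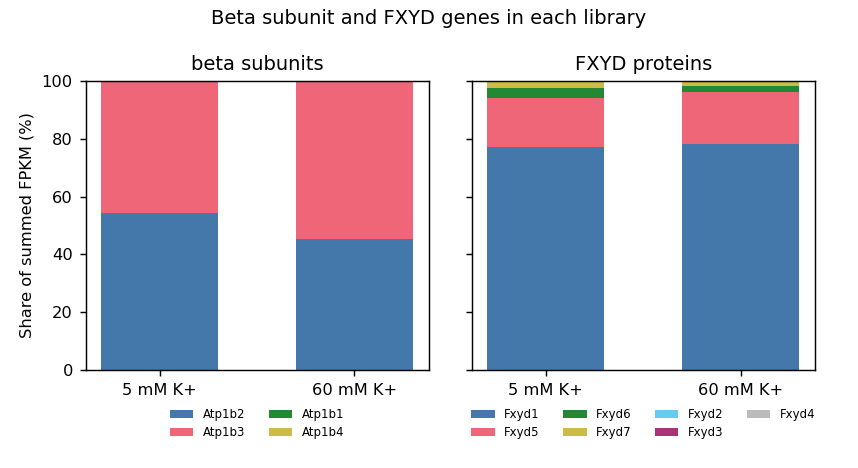
Share of each gene in the summed FPKM of the beta subunits and of the FXYD proteins, in percent, for the control and the depolarized library. The order of Atp1b2 and Atp1b3 is exchanged between the libraries (54.3% and 45.3% of beta subunit FPKM in control), while Fxyd1 holds 77.0% and 78.1% of FXYD FPKM.

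Of the FXYD proteins, the pair with the highest levels was higher in the depolarized library. Fxyd1 (ENSMUSG00000036570; mm9 chromosome 7, 31836700 to 31840675, minus strand) had 2727 and 3391 reads, giving a log2(fold-change) of 0.42 (0.34 to 0.49), with 19.7% of the well-covered genes higher. Fxyd5 (ENSMUSG00000009687; mm9 chromosome 7, 31817741 to 31827500, minus strand), or dysadherin, which has a long extracellular part and loosens cell adhesion in epithelia, had 1005 and 1307 reads. Its log2(fold-change) of 0.48 (0.36 to 0.60) was the largest of the 7, and 15.2% of the well-covered genes had a higher one. Fxyd5 made up 17.0% and 18.1% of summed FXYD FPKM, which was 660 in control and 752 in depolarized arteries. The log2 ratio of ratios of Fxyd5 over Fxyd1 was 0.06, with an interval of -0.08 to 0.21 that held 0, and 0.18 without the length trend. Both genes lie in 1 cluster on chromosome 7 with Fxyd7 between them, which had 93 and 89 reads, giving a log2(fold-change) of 0.04 (-0.40 to 0.47). Fxyd6, a modulator known from brain and inner ear, had 478 and 349 reads, giving a log2(fold-change) of -0.35 (-0.56 to -0.15). Thus the ratio of Fxyd1 to Fxyd6 was 22.1 in control and 37.6 in depolarized arteries, a log2 ratio of ratios of 0.77 (0.55 to 0.98). Without the length trend the value was 0.41. With the assumed coefficient of variation and the length trend left in, the interval was 0.16 to 1.37. Its lower end is smaller than the drop from 0.77 to 0.41, so with the length trend also taken off this interval would hold 0. Fxyd2, the gamma subunit of kidney, had 10 reads in each library, and Fxyd3 had 9 and 2.

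By the value of log2(fold-change), Slc25a5, Rpl28, Ptms, Ndufa3 and Clasp2 were nearest to Fxyd5 among genes with at least 500 reads, each at 0.48. The likeness is that of 1 difference between 2 libraries.

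Slc4a7 (ENSMUSG00000021733; mm9 chromosome 14, 15535539 to 15632457, plus strand), or NBCn1, carries Na+ and bicarbonate into the cell without net charge and is the main acid-extruding transporter of mesenteric smooth muscle in the presence of bicarbonate. It had 1028 reads in control and 839 in depolarized arteries. Its level was 27.8 FPKM (26.1 to 29.5) and 21.1 FPKM (19.7 to 22.5), and its log2(fold-change) was -0.19 (-0.32 to -0.06). Of the well-covered genes, 15.0% had a lower value. Of 5 other bicarbonate transporters of the Slc4 family with at least 10 reads, 3 had an interval below 0 and none above it, with a median of -0.11. The anion exchanger Slc4a3, with the highest level in the family at 181 and 146 FPKM, had 3829 and 3315 reads, giving a log2(fold-change) of -0.11 (-0.17 to -0.04). Slc4a2, a widely expressed anion exchanger, had 950 and 798 reads and a value of -0.15 (-0.29 to -0.01), and the sodium-driven exchanger Slc4a8 571 and 533 reads and 0.00 (-0.17 to 0.17). The log2 ratio of ratios of Slc4a7 was -0.09 (-0.23 to 0.06) over Slc4a3 and -0.19 (-0.41 to 0.03) over Slc4a8, and both intervals held 0.

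Sgk1 (ENSMUSG00000019970; mm9 chromosome 10, 21601990 to 21719709, plus strand) had 2368 reads in control and 2816 in depolarized arteries. Its level was 166 FPKM (159 to 172) and 183 FPKM (176 to 190), and its log2(fold-change) was 0.35 (0.27 to 0.43). Of the well-covered genes, 24.6% had a higher value. Sgk3, another form of the kinase, had 142 reads in each library, and Sgk2 had 0. The ratio of Sgk1 to Sgk3 was 36.1 and 43.0, with a log2 ratio of ratios of 0.25 whose interval, -0.11 to 0.61, held 0, and 0.09 without the length trend. Of the related kinases, Akt1 had 2246 and 2406 reads, giving a log2(fold-change) of 0.20 (0.12 to 0.28), and Akt2 0.23 (0.13 to 0.33).

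The list of SGK1 substrates and sodium regulators held values on both sides of 0. Ndrg1, whose phosphorylation is used as a readout of SGK1, had 2106 and 2645 reads, giving a log2(fold-change) of 0.43 (0.35 to 0.51), and Ndrg2 0.29 (0.23 to 0.36). Nedd4l, or Nedd4-2, the ubiquitin ligase that removes epithelial Na+ channels from the membrane until SGK1 phosphorylates it, had 111 reads in each library and 0.10 (-0.29 to 0.49). Its relative Nedd4 had 10368 and 8204 reads and -0.24 (-0.28 to -0.19), and the transcription factor Foxo3, which SGK1 phosphorylates, -0.65 (-0.77 to -0.52). Foxo1, in the same list, lay on the other side with 651 and 814 reads and 0.42 (0.27 to 0.57). Of 10 genes in this list, 3 had an interval above 0 and 3 below it. Of 8 measured corticosteroid receptors and corticosteroid-regulated genes, 2 had an interval above 0 and 5 below it, with a median of -0.12. Among them were Tsc22d3, or GILZ, at 3092 and 2487 reads and -0.21 (-0.29 to -0.14), the clock gene Per1 at 7903 and 6756 reads and -0.12 (-0.17 to -0.08), and Klf9 at -0.09 (-0.15 to -0.03). In the list of genes of the osmotic response, Akr1b3, aldose reductase, had 717 and 849 reads and 0.35 (0.20 to 0.49), the amino acid transporter Slc38a2 0.11 (0.05 to 0.18), and the taurine transporter Slc6a6 -0.06 (-0.20 to 0.08). Of 5 measured genes of this list, 2 had an interval above 0 and 1 below it.

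Beside the 7 genes, 113 genes were described in 12 lists that cover sodium transport, the kinases around SGK1, corticosteroid action and the osmotic response, and 79 of them had at least 10 reads. Their median log2(fold-change) was -0.06, with 21 intervals above 0, 20 below and 38 that held 0. Scaled by total counts, 11 were above and 38 below, or 13.9% and 48.1%, beside 13.6% and 38.4% of all genes with at least 10 reads. Values between 0 and 0.21 on the TMM scale, such as those of Akt1, Slc8a2, Slc38a2 and Slc4a8, take the other sign under total counts. Only Asic3 (4 and 10 reads) was more than 2-fold higher and only Fxyd3 more than 2-fold lower, both with intervals that held 0. The pump partners had the highest list median, 0.37 over 4 genes. In this list Sik1, a salt-inducible kinase tied to pump activity and a known target of CREB, had 5437 and 9665 reads, 252 and 416 FPKM and a log2(fold-change) of 0.93 (0.88 to 0.98). Nkain4, which binds the beta subunit Atp1b1, had 61 and 89 reads and a value of 0.65 (0.16 to 1.14), and Nkain2 35 and 19 reads and -0.78 (-1.67 to 0.07).

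The partners that use the Na+ gradient differed within each list. Slc8a1, the sodium-calcium exchanger NCX1 of smooth muscle and heart, had 1447 and 890 reads, giving a log2(fold-change) of -0.60 (-0.72 to -0.48). Slc8a2 had 0.20 (0.04 to 0.36) and the mitochondrial Slc8b1 -0.09 (-0.31 to 0.13). Of 9 sodium-proton exchangers and their binding proteins, 4 had an interval above 0 and 1 below it. The binding proteins Slc9a3r2, with 2347 and 3075 reads and 0.49 (0.41 to 0.57), and Chp1, at 0.34 (0.24 to 0.43), were above 0. Of 13 sodium channel genes, Scn7a, a channel that senses Na+, had 1405 and 1015 reads and -0.37 (-0.49 to -0.25), and 2 genes had an interval above 0 and 2 below it. The epithelial channel subunits Scnn1b and Scnn1g, classic SGK1 targets in kidney, had 0 reads. The phosphate cotransporters Slc20a1, at 0.34 (0.21 to 0.47), and Slc20a2, at -0.17 (-0.27 to -0.07), lay on opposite sides of 0.

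**Figure D4:**
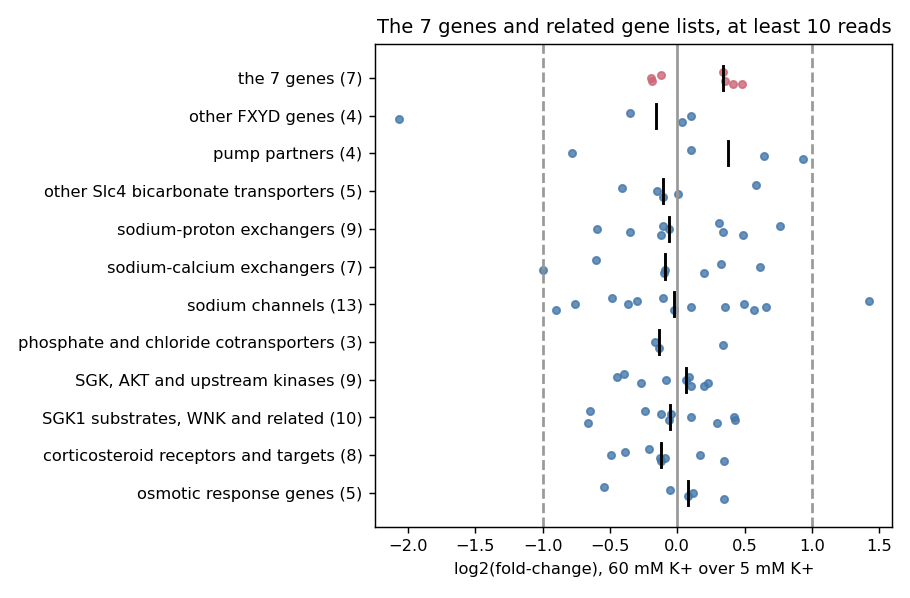
Log2(fold-change) of 60 over 5 mM K+ for the 7 genes and for the genes of 11 of the lists with at least 10 reads over both libraries, 1 point a gene, with the number of genes in parentheses. Short lines mark list medians and dashed lines 2-fold. The 7 genes lie at -0.19 to 0.48, and the medians of the other lists at -0.16 to 0.37 on the TMM scale; total-count scaling lowers each point by 0.21.

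Short genes had higher values than long genes throughout the libraries, and of the 6 genes with at least 1000 reads the 4 above 0 were the shorter ones. Length here is that implied by counts and FPKM, not the span between the printed positions. Among genes with at least 50 reads, the median log2(fold-change) was 0.36 for 71 genes shorter than 500 bases, 0.21 from 500 to 1000 bases, 0.05 from 1000 to 2000 bases, -0.07 from 2000 to 4000 bases and -0.14 above that. Genes of the length of Fxyd1 (512 bases) had a median of 0.30, and with this trend removed Fxyd1 stood at 0.11. The corresponding values were 0.30 for Fxyd5 (853 bases), 0.29 for Sgk1 (1365 bases), 0.20 for Atp1b3, -0.18 for Atp1b2 and -0.10 for Slc4a7 (3529 bases). Its part in the results was not tested beyond this subtraction.

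**Figure D5:**
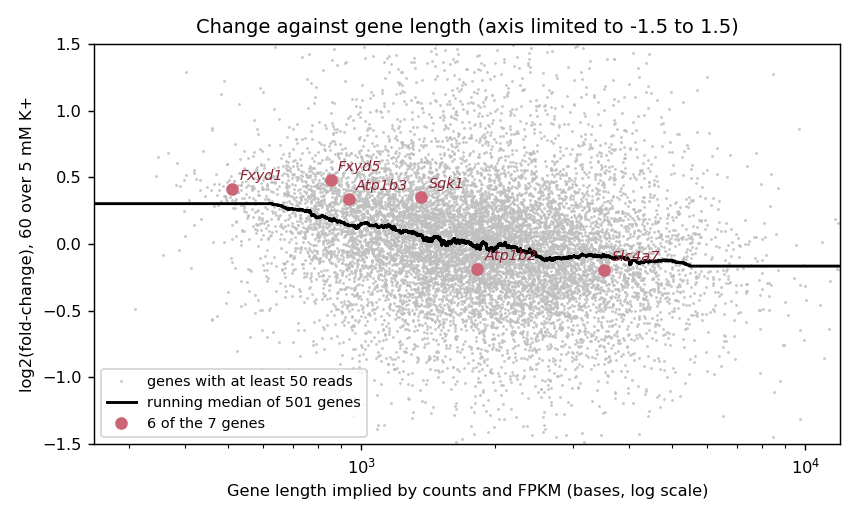
Log2(fold-change) against the gene length implied by counts and FPKM, on a log axis, for genes with at least 50 reads, with the running median of the genes nearest in length as a black line. Of the 7 genes the 6 with enough reads are in color; Fxyd1, at 512 bases, lies near the line, and Fxyd5, Sgk1 and Atp1b3 lie above it.

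The label of artery was checked against smooth muscle markers. All 6 were present at 31.0 to 12480 FPKM, their sum was 17473 FPKM in control and 17004 in depolarized arteries, and Acta2 had 12480 and 12366 FPKM. On the TMM scale, 4 of the 6 intervals lay above 0 and 2 below, with a median of 0.12 (Acta2 0.20). Total-count scaling, as in FPKM, lowers each value by 0.21. The summed levels of other cell types' markers also differed between the libraries. In whole arteries the number of cells of a type and RNA per cell cannot be told apart. Endothelial markers summed to 1266 and 1502 FPKM, with 4 of 6 intervals above 0, 1 below and a median of 0.38 (Pecam1 0.50). Kdr, the endothelial VEGF receptor, lay on the other side with 168 and 73 reads and -1.10 (-1.52 to -0.70). Fibroblast markers summed to 2262 and 1778 FPKM, with 5 of 5 below 0 and a median of -0.29 (Col1a1 -0.08). Adipocyte markers summed to 29.1 and 11.7 FPKM, with 3 of 5 below 0 and 1 above (Cidec -0.90), red blood cell markers to 122 and 70.3, with 2 of 3 below 0 (Hbb-b1 -0.56), and markers of Schwann cells and nerve, a known source of Atp1b2, to 69.8 and 54.4, with 2 of 8 below 0 and 1 above (Th at 0 reads). Macrophage markers summed to 11.1 and 10.5 FPKM, with 1 of 6 above 0 and 1 below (Cd14 0.74). Pancreatic markers summed to 10.3 and 35.2 FPKM, with 4 of 6 above 0, a median of 3.45 (Pnlip 5.03, Cela2a 4.19, Ctrb1 2.72, Cpb1 0.60) and Prss1 and Amy2a5 at 0. Their part in the differences of the 7 genes was not tested.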

How the data were processed

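RNA of mouse mesenteric artery was sequenced after poly-A selection in 2 libraries, 1 for each K+ concentration. The authors aligned the reads to mm9 and deposited raw read counts per gene, not normalized. The submitters' processing notes name TopHat2 2.0.12, HTSeq 0.6.1 and edgeR 3.0.8, and the builds mm8 and mm9. The authors also deposited FPKM values; dividing counts by FPKM gave the same gene length in both libraries (largest relative difference 1.58e-07), so FPKM was scaled by total counts. Symbols were matched for 32601 of 55573 identifiers. Positions are from GENCODE vM1 on NCBIM37 (mm9), promoter sequences from RefSeq on GRCm38.p6.

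Counts were scaled by TMM factors (1.07 for control, 0.930 for depolarized) with edgeR 4.0.16 in R 4.3.3, and a count of 0 was set to 0.5. Intervals were computed with scipy 1.17.1. No test of the conditions was run, because each had 1 library. Genes with at least 10 reads over both libraries were described. The interval script was tested on simulated data.

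The genes and lists were chosen with earlier results of these data known. Named were the 7 genes, the 3 genes with the highest mean FPKM of each of the 12 lists, genes of these lists with at least 50 reads and more than 2-fold difference, the marker of each cell type with the highest FPKM, and the 5 genes nearest to the largest difference among the 7. Asic3, Fxyd3, Sgk2, Sgk3, Atp1b4, Scnn1b, Scnn1g, Nedd4l, Foxo3, Foxo1, Kdr, Pnlip, Cela2a, Ctrb1, Th, Prss1 and Amy2a5 are named outside this rule, after their values were seen. Other scalings tried were total counts, the upper quartile, the median of ratios of DESeq2 1.42.0 and TMM on genes with at least 10 reads or 1 CPM. Further alternatives were FPKM with pseudocounts of 0.1 and 1, minima of 50 reads and 1 read, and a 1.5-fold threshold. The removal of the length trend (running median of 501 genes), the assumed coefficients of variation, the comparison with genes of at least 1000 reads and the ratios between genes were chosen after seeing the data. Some genes that the rule would name are not reported here. The imaging, qPCR and protein experiments were not analysed here.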

Additional observations from a re-analysis of the deposited data

How the results depend on the processing

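No paired analysis was possible because there was 1 library for each K+ concentration, and no replicate could be left out. No log2(fold-change) of the 7 genes turned its sign, and none passed 2-fold, under any alternative. With total counts the values were -0.39 for Atp1b2, 0.13 for Atp1b3, 0.21 for Fxyd1, 0.27 for Fxyd5, -0.40 for Slc4a7 and 0.14 for Sgk1. From FPKM with a pseudocount of 0.1 they were -0.39, 0.13, 0.21, 0.27, -0.40 and 0.14 in the same order, and with a pseudocount of 1 they were -0.39, 0.13, 0.21, 0.27, -0.38 and 0.14. Without the length trend, Atp1b3 was at 0.20, Fxyd1 at 0.11 and Fxyd5 at 0.30. An assumed coefficient of variation was added with TMM scaling only. With 0.1, 2 intervals lay above 0 in place of 4 and 0 below in place of 2. With 0.2 there were 0 on either side. The number of genes of the 12 lists past 2-fold was 2, and became 4 with total counts, 0 with a minimum of 50 reads and 13 with a minimum of 1 read. Of the 12 lists, 4 had a positive median, 2 with total counts and 7 with a minimum of 1 read. Of the 20 list medians, marker lists included, total counts moved 10 beyond the median ends of their genes' counting intervals and each other setting 1. Depth limits Atp1b1, at 14 and 12 reads, where a 2-fold difference could not be seen.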
